A study of Mus musculus with 2 samples.

Results

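The genes described here encode the subunits of the transcription factor NF-kB and the inhibitors and feedback regulators that NF-kB itself induces. Of the 10 genes chosen by name (Nfkb1, Nfkb2, Rel, Rela, Relb, Nfkbia, Nfkbiz, Bcl3, Tnfaip3 and Birc3), 9 had at least 1 probe set annotated to that gene alone, with 18 probe sets in all among the 45101 of the array. Nfkb1 had none and was not analysed here. Signals were measured in thioglycolate-elicited peritoneal macrophages, inflammatory macrophages that an injected irritant medium draws into the abdominal cavity. The CSF1 group was 1 array of cells given 100 ng/ml CSF1 (macrophage colony-stimulating factor) for 12 h, and the control group was 1 array of cells kept without CSF1. Both groups came from wild-type male C57BL6 mice aged 8 weeks that had received 0.2 ml of 10% thioglycolate medium 1 week before lavage, and both were grown in serum-containing medium to 80% confluence. The platform was the Affymetrix Mouse Genome 430 2.0 array. With 1 array per group there is no replicate check and no test between groups, so every difference below describes these 2 arrays. The labels do not say how many mice were used or whether cells were pooled.

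NF-kB subunits pair into dimers that are held in the cytoplasm by IkB proteins. When receptors such as those for tumour necrosis factor or bacterial products are engaged, the IKK kinase complex marks the IkB protein for destruction and the dimers enter the nucleus. Among the genes that they then switch on are the genes of the inhibitor IkBa (Nfkbia), the ubiquitin-editing enzyme A20 (Tnfaip3) and the ubiquitin ligase cIAP2 (Birc3), so that the mRNA of these genes is widely read in macrophages as a trace of NF-kB activity. The comparison asks whether the mRNA of this circuit differed after 12 h of CSF1.

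The promoters are shown because several of these genes are known targets of NF-kB, which binds DNA at the kB motif. RefSeq promoter windows (GRCm38.p6, 250 bases before to 50 after a transcript start) were at hand for 7 of the 10 genes, Nfkbia, Tnfaip3, Rel, Nfkb2, Bcl3, Rela and Birc3, in 10 windows. The degenerate kB consensus was searched on both strands, where neighbouring matches can overlap. At least 1 match was present in 7 of the 10 windows, which belong to 5 of the 7 genes, and in 8.46% of all 32851 windows. The windows are not all independent, since the Nfkb2 windows at later starts overlap and share a match. The motif was settled after the member promoters had been looked at, and other spellings were searched too. Stricter spellings were matched in the same 5 genes and in 3.24% of all windows, and shortened ones in those 5 genes, in Rela and in 9.53% of all windows. The 150 bases before the start are given for 5 genes, 5′ to 3′ on the gene's strand, with capitals marking the matches to the consensus and positions counted back from the start.
Nfkbia, chr12:55492648-55492797, minus strand: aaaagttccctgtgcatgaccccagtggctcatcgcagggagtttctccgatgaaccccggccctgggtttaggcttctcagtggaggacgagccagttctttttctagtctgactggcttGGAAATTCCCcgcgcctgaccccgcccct
Tnfaip3, chr10:19015411-19015560, minus strand: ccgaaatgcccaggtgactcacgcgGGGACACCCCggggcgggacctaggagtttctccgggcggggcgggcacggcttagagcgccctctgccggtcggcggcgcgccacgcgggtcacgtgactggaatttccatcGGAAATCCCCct
Rel, chr11:23770970-23771119, minus strand: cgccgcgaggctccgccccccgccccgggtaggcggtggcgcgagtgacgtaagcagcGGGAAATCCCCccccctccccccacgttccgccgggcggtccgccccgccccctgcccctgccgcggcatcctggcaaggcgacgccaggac
Nfkb2, chr19:46304587-46304736, plus strand: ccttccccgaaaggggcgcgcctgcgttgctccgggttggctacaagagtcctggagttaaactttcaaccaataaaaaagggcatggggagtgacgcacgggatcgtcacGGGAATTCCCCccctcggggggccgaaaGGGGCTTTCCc
Birc3, chr9:7873171-7873320, minus strand: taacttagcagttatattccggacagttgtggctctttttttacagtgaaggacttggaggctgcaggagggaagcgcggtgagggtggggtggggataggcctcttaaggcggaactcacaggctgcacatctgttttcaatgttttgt

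The Nfkbia match lay at positions -29 to -20 on the opposite strand. Tnfaip3 had a match at -125 to -116 on both strands and a second, on the opposite strand, at -12 to -3. Rel had overlapping matches between -92 and -82. Nfkb2 held overlapping matches between -39 and -29 and another at -11 to -2. Its 2 windows at later starts also held matches, but these windows overlap and share a match. Bcl3 had a match on both strands just after its start, at 3 to 12. The windows of Birc3 and Rela and the other window of Tnfaip3 held no match to the consensus, which says only that these letters are not in these windows.

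Most of the circuit differed little between the arrays, and Birc3 was the exception. Values below 155 units, the 90th percentile of probe sets for genes of unrelated tissues, were treated as background. Of the 18 probe sets, 15 were above that level on both arrays, 2 on 1 array and 1 on neither. Of the 15, 13 lay within 1.5-fold. Of all 16286 probe sets that passed this level on both arrays, 90.1% did. The median log2 ratio of CSF1 over control was -0.03 for the 15 member probe sets, with 4 above 0 and 11 below, and the median of all such probe sets was -0.01. At the gene level, with each gene read from its brightest probe set, 0 of 9 member genes passed 1.5-fold upwards and 1 passed it downwards. Over all 10600 measured genes 5.42% passed it upwards and 4.91% downwards, so the members' counts were near the background. The same member gene was also the 1 that was at least 2-fold lower, where the share of all measured genes was 0.632%, and 0 were at least 2-fold higher, against 0.811%.

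**Figure D1:**
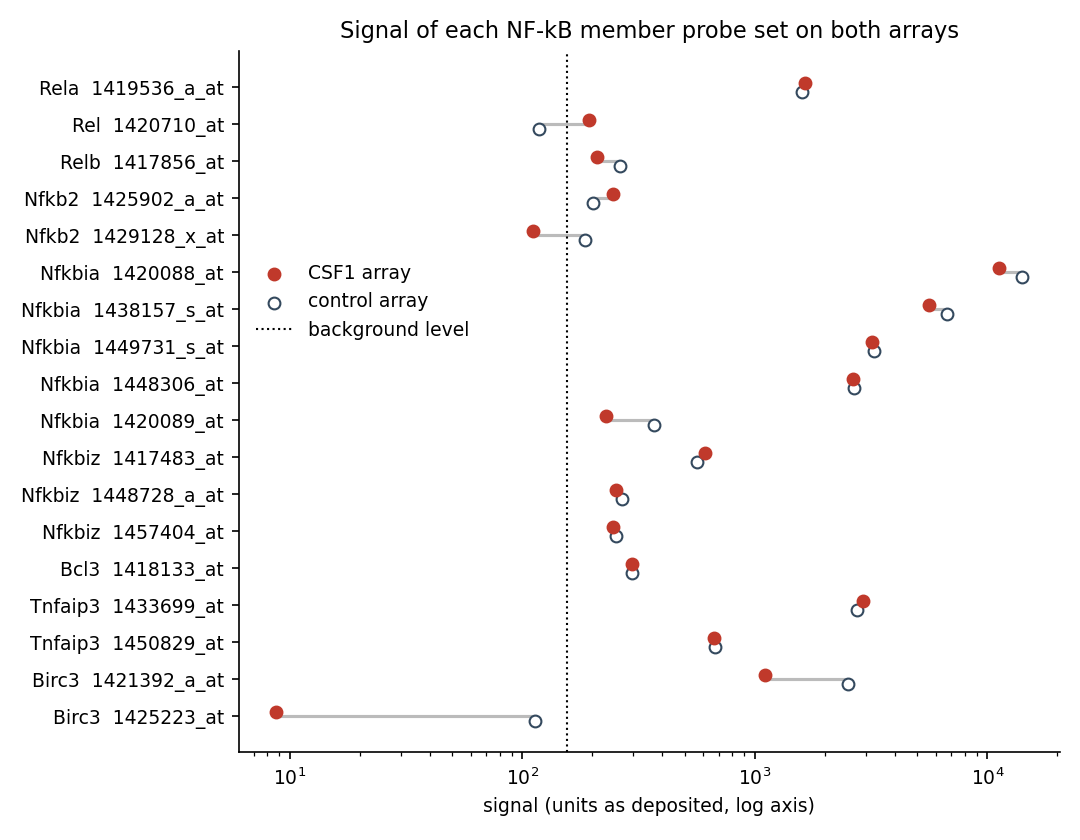
Signal of each of the 18 member probe sets in deposited units (log axis), with filled points for the CSF1 array, open points for the control array and a dotted line at the background level of 155 units. The points of most probe sets nearly coincide, and the widest gap above background belongs to Birc3, with 1104 units on the CSF1 array and 2501 units on the control array.

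Among the subunits, Rela encodes p65, the main transactivating subunit of the classical NF-kB dimer. Its probe set read 1635 units on the CSF1 array and 1587 units on the control array, a 1.03-fold difference. Relb, the transactivating partner of p52 in the alternative pathway, had 210 units on the CSF1 array and 263 units on the control array, 1.25-fold lower (log2 ratio -0.33). At Relb's signal level, the central 95% of all probe sets ran from -0.88 to 0.85 on the log2 scale, so a difference of this size was common there.

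Rel and Nfkb2 were close to background. Rel, the c-Rel subunit of lymphoid and myeloid cells, had 193 units on the CSF1 array and 117 units on the control array, which is under the background level, so its ratio is a bound of at least 1.25-fold higher. Without a background level its log2 ratio was 0.72. Nfkb2 encodes the p100 precursor, which is processed to p52, and its 2 probe sets pointed in opposite directions. The brighter had 245 units on the CSF1 array and 201 units on the control array, 1.22-fold higher. The other had 111 units on the CSF1 array, below background, and 186 units on the control array, at least 1.20-fold lower. No direction can be given for Nfkb2.

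Nfkbia, the inhibitor that strips NF-kB from DNA and carries it back to the cytoplasm, was read by 5 probe sets, all above background on both arrays. The brightest had 11188.5 units on the CSF1 array and 14134 units on the control array, 1.26-fold lower. The next brightest had 5597 units on the CSF1 array and 6713 units on the control array, 1.20-fold lower. Both were lower on the CSF1 array by similar amounts.

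The next 2 Nfkbia probe sets read nearly the same signal on both arrays. The brighter of this pair had 3175 units on the CSF1 array and 3248 units on the control array (log2 ratio -0.03). The other had 2639 units on the CSF1 array and 2664 units on the control array (log2 ratio -0.01). The dimmest had 230 units on the CSF1 array and 368 units on the control array, 1.60-fold lower.

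All 5 Nfkbia ratios were below 0 as deposited and averaged -0.27 ± 0.27 on the log2 scale (SD, 5 probe sets), a spread that covers neither cultures nor animals. This spread was like that between probe sets of a gene in general, which had a pooled SD of 0.28 over 3649 genes. Each of the 5 lay inside the central 95% of probe sets of similar level. For the brightest that range was -0.56 to 0.33, with its median at -0.06. After quantile normalization the brightest was at -0.26, and it was at -0.04 once the spiked-in control RNAs set the centre.

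The 2 nuclear IkB proteins gave ratios near 0. Nfkbiz (IkBz), which NF-kB induces and which acts in the nucleus as a coactivator of secondary response genes, had 608 units on the CSF1 array and 561 units on the control array on its brightest probe set, 1.08-fold higher. Over its 3 probe sets the log2 ratios ran from -0.09 to 0.11, averaging -0.01 ± 0.11 (SD, 3 probe sets). Bcl3, which binds homodimers of p50 or p52 at target promoters, had 295 units on the CSF1 array and 296 units on the control array, a log2 ratio of -0.01 as deposited.

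Tnfaip3 encodes A20, which edits ubiquitin chains on signalling proteins upstream of IKK and so damps the response. Its brighter probe set had 2918 units on the CSF1 array and 2755 units on the control array, 1.06-fold higher. The other had 667 units on the CSF1 array and 675 units on the control array, 1.01-fold lower. Together they averaged 0.03 ± 0.07 on the log2 scale (SD, 2 probe sets).

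Birc3 encodes cIAP2, a ubiquitin ligase that sits with TRAF proteins at tumour necrosis factor receptors and promotes survival signalling. Its brighter probe set had 1104 units on the CSF1 array and 2501 units on the control array, 2.26-fold lower (log2 ratio -1.18). Of the 10600 measured genes, 26 had a lower ratio. Among the 2464 measured probe sets within 0.5 log2 units of its level, the central 95% ran from -0.57 to 0.64, and Birc3 was the 1 of the 15 member probe sets outside the range for its level. Its other probe set was under background on both arrays, with 8.71 units on the CSF1 array and 113 units on the control array, so no fold is given. Birc3 therefore rests on 1 probe set, whose name ending (_a_at) marks it as able to match several transcripts. Centred on the spikes, its log2 ratio was -0.88, under 2-fold. Averaging in the probe set under background put the CSF1 mean at the background level and gave -1.78, which is set by that level and is no measured ratio.

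Birc2 and Xiap, related inhibitor-of-apoptosis genes, did not show a difference of this size. Birc2, which encodes cIAP1, had 917 units on the CSF1 array and 998 units on the control array, 1.09-fold lower. Xiap, chosen here after its values were seen, had 2770 units on the CSF1 array and 3182 units on the control array, 1.15-fold lower.

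**Figure D2:**
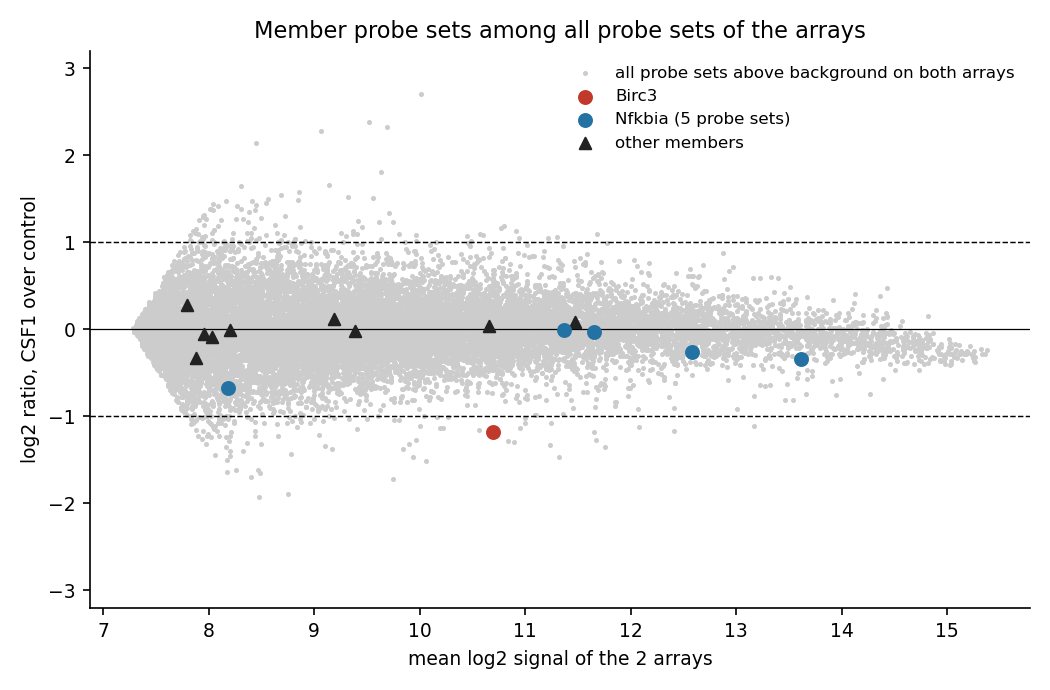
Log2 ratio of CSF1 over control against the mean log2 signal of both arrays, for all 16286 probe sets above background on both (grey) and the 15 member probe sets among them; dashed lines mark 2-fold. Birc3 (red) lies at -1.18 below the cloud at its level, the 5 Nfkbia probe sets (blue) lie between -0.68 and -0.01, and the other members (triangles) lie between -0.33 and 0.28.

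The arrays differed in ways that bear on small ratios. The median signal was 91.6 units on the CSF1 array and 101.5 units on the control array, and 38.9% of probe sets on the CSF1 array and 40.3% on the control array were above background. The 18 spike probe sets, RNA added in equal amounts by the standard protocol, averaged -0.29 ± 0.13 on the log2 scale (SD over the 18), whereas the median of all measured genes was 0.00. Centring on the spikes therefore raised the median of all measured genes to 0.28, and 11 of the 15 member probe sets were then above 0 and 4 below. Actb was at -0.30 ± 0.02 (SD between 5 probe sets) and Gapdh at -0.54 ± 0.22 (3 probe sets). The 3′ to 5′ signal ratio of Gapdh was 1.40 on the CSF1 array and 1.025 on the control array. That of Actb was similar on both, 1.38 on the CSF1 array and 1.35 on the control array.

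The arrays carried the markers of the labelled cell type along with those of others. All 10 macrophage markers with a probe set were above background on both arrays, with a summed signal of 159115 units on the CSF1 array and 190015 units on the control array. Their median log2 ratio was -0.24, with 9 of 10 below 0, and 0.05 with 4 of 10 below 0 after centring on the spikes. Csf1r, the CSF1 receptor gene, was at -0.36 ± 0.23 (SD between 3 probe sets). All 6 fibroblast markers were above background on both arrays, with a summed signal of 64451 units on the CSF1 array and 51036 units on the control array. In a bulk sample, fewer cells of a type and less RNA per cell cannot be told apart.

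Birc3 is also expressed in lymphocytes. The summed signal of the natural killer cell markers was lower on the CSF1 array too. T cell markers had a small median log2 ratio, and that of B cell markers depended on the background level. Of 3 natural killer cell markers with a probe set, Gzma and Klrd1 were above background on both arrays and were at -1.72 and -0.82 on the log2 scale, while Ncr1 was below background on both. The summed signal of these 3 markers was 807 units on the CSF1 array and 2122 units on the control array. Of 5 T cell markers, 4 were above background on both arrays, with a median log2 ratio of -0.04 and a sum of 1232 units on the CSF1 array and 1208 units on the control array, and Cd3e was below background on both. Of 4 B cell markers, 1 was above background on the CSF1 array (Pax5) and 2 on the control array (Cd79a and Cd79b), all near that level. Their summed signal was 448 units on the CSF1 array and 593 units on the control array. The median log2 ratio of the 3 B cell markers above background on either array was -0.003. Of these, 1 was higher on the CSF1 array and 2 lower, or 2 higher and 1 lower after centring on the spikes. The part of lymphoid cells in the Birc3 difference was not tested.

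Other genes of the pathway gave the same picture of small differences in both directions. Of 61 listed, 55 had a probe set and were measured, with a median log2 ratio of 0.01 against 0.00 over all measured genes, and 28 were above 0 and 27 below. Past 1.5-fold were 3 of 55 upwards and 1 of 55 downwards, again near the shares of all measured genes, and 0 were past 2-fold. These genes fell into groups by role, drawn up with earlier results of these data known.

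The IkB relatives of Nfkbia went both ways. Nfkbib, which encodes the cytoplasmic inhibitor IkBb, had 787 units on the CSF1 array and 459 units on the control array, 1.72-fold higher. That probe set, the 1 of its 2 above background on both arrays, is marked (_s_at) as able to match several transcripts. Nfkbie, encoding IkBe, had 446 units on the CSF1 array and 676 units on the control array on its brightest probe set, 1.52-fold lower, but its 2 probe sets averaged -0.23 ± 0.52 (SD). Nfkbid, a nuclear IkB gene, had 336 units on the CSF1 array and 425 units on the control array, 1.26-fold lower.

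The IKK complex and the kinases around it lay close to 0. Of 12 measured, 9 were below 0 with a median log2 ratio of -0.10, and 1 was below 0 after centring on the spikes. Ikbkb, the catalytic IKK subunit of the classical pathway, averaged -0.14 ± 0.08 (SD between 2 probe sets). Ikbkg, the regulatory subunit NEMO, averaged 0.03 ± 0.24 (6 probe sets). Map3k14, the kinase NIK of the alternative pathway, was 1.12-fold higher, and the TAK1 partner gene Tab3 was 1.19-fold lower.

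Receptors and receptor adaptors went both ways, with 8 of 15 measured above 0, 7 below and a median log2 ratio of 0.01, and so did the ubiquitin ligases, deubiquitinases and adaptors, with 11 of 17 above 0, 6 below and a median of 0.05. Tradd, listed among the receptor adaptors, had 800 units on the CSF1 array and 536 units on the control array, 1.49-fold higher. Its 2 probe sets averaged 0.83 ± 0.36 on the log2 scale (SD). Traf2, an adaptor that binds Birc2 and Birc3 proteins, had 399 units on the CSF1 array and 280 units on the control array, 1.42-fold higher. Tnip2, an A20-binding inhibitor gene, had 430 units on the CSF1 array and 287 units on the control array, 1.50-fold higher.

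Tnfrsf11a, the gene of the receptor RANK, had 557 units on the CSF1 array and 339 units on the control array, 1.64-fold higher, and its 2 probe sets averaged 0.43 ± 0.41 (SD). Traf6, a ubiquitin ligase downstream of Toll-like receptors and RANK, had 267 units on the CSF1 array and 374 units on the control array, 1.40-fold lower. Tnip1 was 1.12-fold higher, and the deubiquitinase gene Cyld averaged -0.08 ± 0.19 (SD between 3 probe sets). Traf1, an NF-kB target, was under background on the CSF1 array at 97.3 units and just above it on the control array at 159 units. Chuk and Traf3 were not analysed here.

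**Figure D3:**
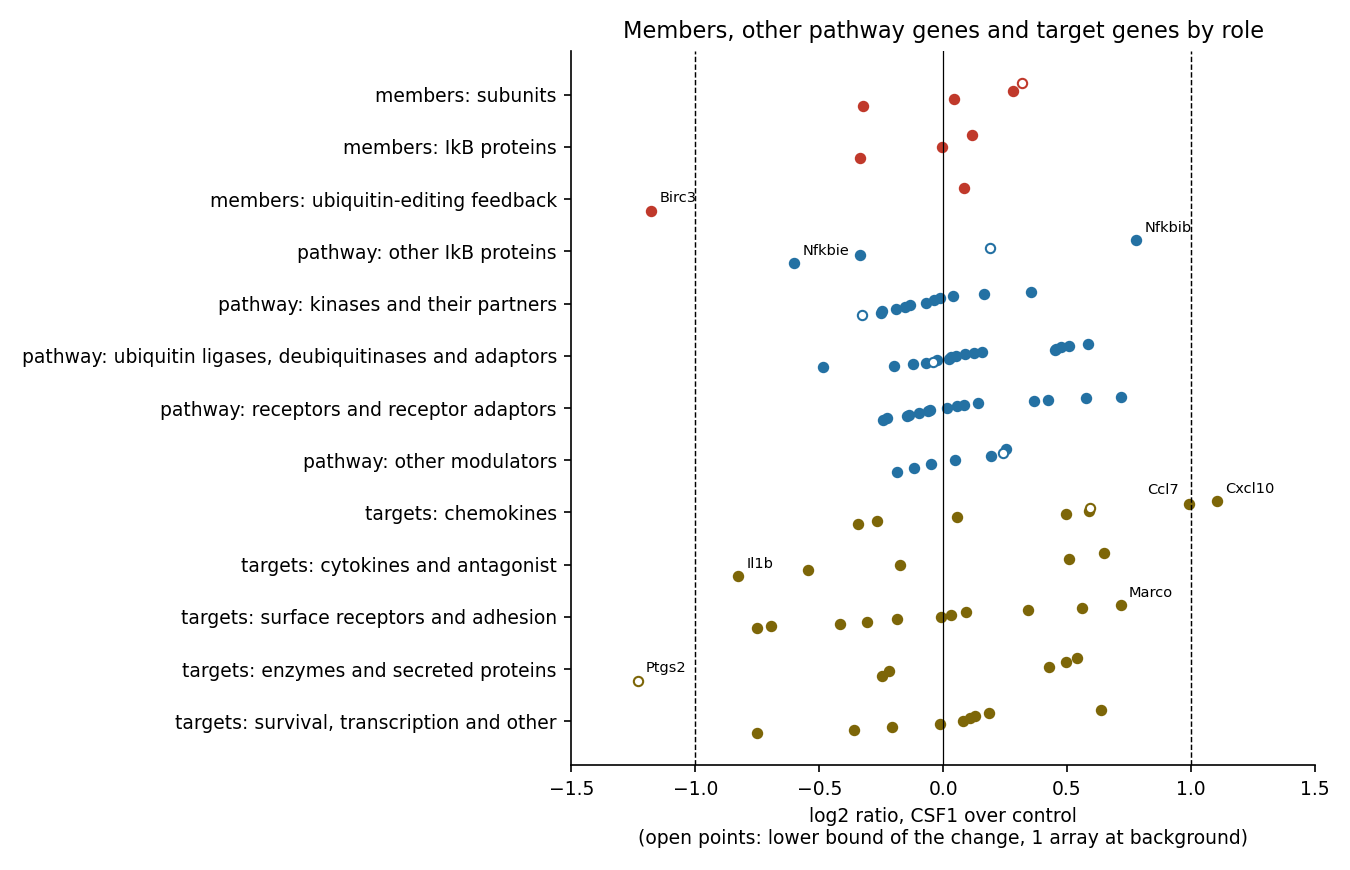
Log2 ratio of CSF1 over control for each measured member (red), other pathway gene (blue) and target gene (ochre), in rows by role; open points are bounds with 1 array at background, and dashed lines mark 2-fold. Members apart from Birc3 and pathway genes cluster around 0, while target genes run from -1.23 (Ptgs2) to 1.10 (Cxcl10).

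Inflammatory genes that NF-kB is known to drive were spread more widely and without a common direction. Of 49 listed, 39 were measured, with a median log2 ratio of 0.05, 21 above 0 and 18 below. Past 1.5-fold were 7 of 39 upwards and 5 of 39 downwards, against 5.42% and 4.91% of all measured genes. Members of the list were picked as inducible genes and share other regulators, so these counts are given as a description. Below background on both arrays were the cytokine genes Il12b, Il23a, Il10, Csf2 and Csf3, the chemokine gene Cxcl3 and Nos2, the inducible nitric oxide synthase gene.

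Of 8 measured chemokine genes 6 were above 0, as were 5334 of the 10600 measured genes, and their median log2 ratio was 0.54, or 0.30 with the stricter background level of 216 units. Past 1.5-fold upwards were 4 of the 8, Cxcl10, Ccl7, Ccl2 and, as a bound, Cxcl2, and 0 were past it downwards. The shares of all measured genes were 5.42% upwards and 4.91% downwards. The target roles, like those of the pathway genes, were drawn up with earlier results of these data known. The 2 below 0 were Ccl5 at -0.34 and Ccl3 at -0.27, and Cxcl1 was near 0 at 0.05; these 3, with Ccl2 and Cxcl2, are named after their values were seen. Cxcl10, an interferon-inducible T cell attractant, had 440 units on the CSF1 array and 205 units on the control array, 2.15-fold higher. Ccl7, a monocyte attractant, had 4943 units on the CSF1 array and 2486 units on the control array, 1.99-fold higher. Il6, a cytokine gene, had 535 units on the CSF1 array and 341 units on the control array, 1.57-fold higher. Fibroblasts also make several of these products, and the median log2 ratio of the 6 fibroblast markers was 0.31, with 6 above 0, or 3 above 0 when all probe sets of a gene were averaged. Their part in these ratios was not tested.

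The 31 measured targets other than chemokines went both ways, with 15 above 0 and 16 below. Ptgs2, the prostaglandin synthase gene COX-2, was under background on the CSF1 array at 153 units and had 364 units on the control array, at least 2.35-fold lower. Il1b, a pro-inflammatory cytokine gene, had 219 units on the CSF1 array and 389 units on the control array, 1.77-fold lower. Ier3, an immediate early survival gene, had 1061 units on the CSF1 array and 1786 units on the control array, 1.68-fold lower. In the same roles, chosen here after their values were seen, the log2 ratio was 0.64 for the survival gene Bcl2l1, 0.54 for Lcn2, 0.51 for the cytokine gene Tnf and 0.50 for the prostaglandin synthase gene Ptges.

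Surface receptors among the targets went both ways. Cd86, a costimulatory receptor gene, was lower on both of its probe sets, averaging -0.72 ± 0.04 on the log2 scale (SD). Tlr2, a receptor for bacterial lipoproteins, had 2594 units on the CSF1 array and 4200 units on the control array, 1.62-fold lower. Marco, a scavenger receptor gene of macrophages, had 10295 units on the CSF1 array and 6265 units on the control array, 1.64-fold higher, with its 2 probe sets at a mean of 0.72 ± 0.0017 (SD).

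**Figure D4:**
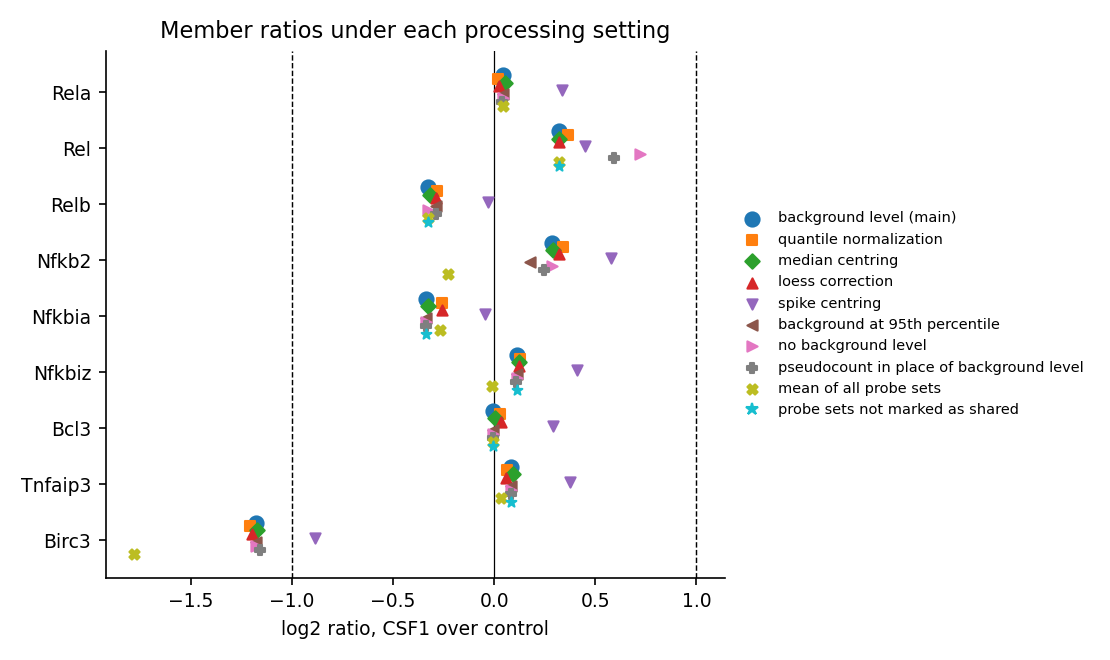
Log2 ratio of CSF1 over control for each of the 9 member genes under the setting used throughout (signals below 155 units raised to that level) and 9 other processing settings, with dashed lines at 2-fold. Birc3 lies between -1.21 and -0.88 in the 8 settings that read it from its brighter probe set, its point at -1.78 averages in a probe set under background and is no measured ratio, and the other members lie between -0.34 and 0.72.

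The order of the member genes by log2 ratio was Birc3 lowest at -1.18, then Nfkbia at -0.34, Relb at -0.33, Bcl3 at -0.01, Rela at 0.04, Tnfaip3 at 0.08, Nfkbiz at 0.11, Nfkb2 at 0.28 and Rel at 0.32 as a bound. This order holds only for the brightest probe sets. The other probe set of Nfkb2 was at -0.26 as a bound, and the mean of both gave -0.23. With all probe sets averaged, Nfkbia at -0.27 came above Relb at -0.33, and Nfkbiz at -0.009 came below Bcl3 at -0.005. Apart from the step between Birc3 and Nfkbia, neighbours in the order by brightest probe set differed by no more than the pooled SD of 0.28 between probe sets of a gene. The exception was Relb and Bcl3, which differed by slightly more.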

How the data were processed

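The authors deposited 1 intensity value per probe set and array on a linear scale, produced with Gene spring software per the labels and the series' design text. The step from single probes to probe sets is not stated in the labels, design text or file header. With 2% trimmed at each end, both arrays averaged 500.0 units. The number of arrays limits the precision, and 1 array per group allows no test.

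Groups came from the labels. Probe sets were named from the platform annotation, in which 34958 carried 1 symbol, 932 several and 9211 none. Values were raised to the background level of 155 units, the 90th percentile over 146 probe sets for 92 genes typical of other tissues, some possibly expressed, and the log2 ratio of CSF1 over control was taken. Each gene was read from its brightest probe set by mean log2 level. The members and lists were chosen with earlier results of these data known. Named were all members, direct partners, the 4 highest and 4 lowest genes of each list among those above background on both arrays, genes past 2-fold, Actb, Gapdh and Csf1r. The computation of ratios was checked on simulated arrays with large changes planted in genes well above background. That check covers neither small ratios nor signals near background. Alternatives were quantile normalization, median, loess (span 0.3) and spike centring, the 95th percentile or no background level, a pseudocount of 32 units, the mean of all probe sets, and probe sets not marked as shared. Names ending in _a_at, _s_at or _x_at all counted as shared, without telling these endings apart. The kB motif and its other spellings were chosen after the promoters had been seen. Computations used pandas 2.3.3, numpy 2.4.6, statsmodels 0.14.6, scipy 1.17.1 and matplotlib 3.10.9 under Python 3.11.15.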

Additional observations from a re-analysis of the deposited data

How the results depend on the processing

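No paired analysis was possible because each group has 1 array, and no replicate could be left out. A ratio was taken as moved when it differed by more than 0.28, the pooled SD between probe sets, from the value with the background level of 155 units. Centring on the spikes shifted all genes: the median log2 ratio became 0.28 for all measured genes, 0.34 for members, 0.31 for other pathway genes and 0.35 for targets, 0 members were past 2-fold downwards, 11 pathway genes were past 1.5-fold upwards, 2 past 2-fold upwards and 0 past 1.5-fold downwards, and among targets 14 were past 1.5-fold upwards, 3 past 2-fold upwards, 1 past 1.5-fold downwards and 0 past 2-fold downwards. Without a background level, 1 member (Rel) was past 1.5-fold upwards, 3 pathway genes were past 1.5-fold downwards and 3 targets past 2-fold upwards. With the pseudocount, 1 member (Rel) was past 1.5-fold upwards and 0 targets past 2-fold upwards. On probe sets not marked as shared, Birc3 had no value, so 0 members were past 1.5-fold or 2-fold downwards, with 0 pathway genes past 1.5-fold downwards, 1 past 2-fold upwards (Tradd, 1.08) and 3 targets past 1.5-fold downwards. With all probe sets averaged, 2 pathway genes were past 1.5-fold downwards and 1 past 2-fold downwards. With median centring 2 targets were past 2-fold upwards, and with the stricter background level of 216 units 0 targets were past 2-fold downwards. The cause of these shifts was not tested. Signals near background limit Rel, Relb and Nfkb2.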
